A study of Mus musculus with 10 samples.

Results

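The integrated stress response is described here by 36 genes: the kinases that start it, the transcription factors that carry it, the proteins that feed back on it, and the enzymes, transporters, tRNA-charging proteins and surface or secreted proteins whose genes the factor ATF4 is known to activate. They were chosen by name from what is known of the pathway, though with earlier results of these data known. Of the 36, 35 had a usable probe among 23574 tested features. The exception was Pycr1, an enzyme of proline synthesis, for which no probe carried a RefSeq accession. RNA of the adult hippocampus was measured on 2-colour Agilent arrays, with 1 mouse per array. The 5 cKO mice had a conditional knockout of the kinase DLK (dual leucine zipper kinase, gene Map3k12), and the 5 WT mice were wild type for it. Mice of both genotypes had been on a tamoxifen diet for 3 weeks, so a drug effect common to all 10 mice does not show as a difference. Which recombinase removed DLK, in which cells it acts, and the animals' sex and exact age were not stated in the labels read here. Hippocampal cRNA carried the dye Cy5, and a commercial pool of mouse RNA, the same on every array, carried Cy3.

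When a cell is short of amino acids or its endoplasmic reticulum is overloaded, kinases such as PERK (gene Eif2ak3) and GCN2 (gene Eif2ak4) phosphorylate the initiation factor eIF2alpha. Translation then falls in general, while the mRNA of Atf4 is translated more, and ATF4 raises transcription of genes for amino acid supply, tRNA charging and feedback control. DLK, a kinase upstream of JNK in neurons, has been reported to act with the PERK and ATF4 arm in injured mouse retinal ganglion cells. The series compared the hippocampus of mice with and without DLK, and the labels name no injury or seizure. Arrays read mRNA only, and ATF4 is controlled largely at translation, so the mRNAs of its target genes are the readout of its activity available here.

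ATF4 binds, with C/EBP proteins, to an element whose letters are searched here as TGATGNAA on either strand. In RefSeq promoter windows of assembly GRCm38.p6, which run from 250 bases before to 50 bases after a gene's start, 10 of the 33 members with a window held at least 1 match (30.3%), against 1219 of 27025 genes (4.51%). Slc7a5, Nars and Wars have no window in that table. The sites below are those of 7 measured members whose values are discussed further on, printed 5′ to 3′ on the strand of the gene, with the match in capitals. A match on the other strand reads TTNCATCA, the reverse complement.

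Asns, asparagine synthetase, chr6:7693214-7693243, starting 23 bases before the gene's start: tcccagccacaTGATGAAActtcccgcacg
Gars, glycyl-tRNA synthetase, chr6:55037960-55037989, starting 30 bases before: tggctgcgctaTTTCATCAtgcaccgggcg
Iars, isoleucyl-tRNA synthetase, chr13:49682126-49682155, starting 7 bases after: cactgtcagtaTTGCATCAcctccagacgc
Vldlr, a lipoprotein and reelin receptor, chr19:27216809-27216838, starting 200 bases before: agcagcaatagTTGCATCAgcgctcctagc
Slc7a11, the cystine and glutamate exchanger, chr3:50443642-50443671, starting 47 bases before: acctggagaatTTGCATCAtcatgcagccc
Trib3, a pseudokinase that binds ATF4 and CHOP, chr2:152344028-152344057, starting 14 bases after: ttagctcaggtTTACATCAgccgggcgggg
Chac1, a glutathione-degrading enzyme, chr2:119351038-119351067, starting 193 bases before: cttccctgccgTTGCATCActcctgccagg

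The Asns match has the letters of the amino acid response element known from the human ASNS promoter. Slc7a11 held a second match in the same window. Many members are listed as ATF4 targets because of such elements, so the higher share is a description of the list, and a match of letters is not a measured binding site.

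The depth of the arrays was similar in both genotypes. Median Cy5 signal was between 146 and 191 on cKO arrays and between 171.75 and 202 on WT arrays, and from 69.6% to 76.1% of probes were well above background on each array. The probes used for all 35 members were well above background in Cy5 on every array. All 15 marker genes of hippocampal principal neurons exceeded the reference RNA in WT mice. The arrays lay on 3 slides: 4 cKO arrays on slide 1, 1 cKO and 3 WT arrays on slide 2, and 2 WT arrays on slide 3. Genotype and slide can therefore be separated only within slide 2. The means of some lists of cell markers also differed between the genotypes. The mean of 14 choroid plexus and ependyma markers was 1.07 to 2.53 in cKO and 0.31 to 1.15 in WT mice. That of 14 oligodendrocyte markers was 3.16 to 3.42 in cKO and 2.73 to 3.18 in WT mice. That of 12 endothelial markers was 1.98 to 2.15 in cKO and 1.81 to 1.98 in WT mice. All 14, 12 of 14 and 10 of 12 of these markers had higher values in cKO mice, against 54.8% of all features. So did 10 of 12 microglia, 9 of 12 astrocyte and 9 of 15 principal neuron markers. No marker passed adjustment with limma. A further listed choroid plexus marker was not measured. Fits with the choroid plexus or oligodendrocyte mean as a covariate are given with the results, with differences for some members only. Correlations of the members with each list's mean are given there too.

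All values that follow are log2 ratios of sample over reference, one per mouse, and each difference is cKO minus WT. Map3k12, the targeted gene, had log2 ratios of 0.64, 0.11, 0.64, 0.68 and 0.48 in cKO mice, against 2.11, 1.76, 1.74, 1.87 and 2.15 in WT mice. Every cKO mouse lay below every WT mouse. The mean was 0.51 ± 0.24 in cKO and 1.93 ± 0.19 in WT mice (SD, n = 5 each), a difference of -1.41 (SE 0.12, limma adjusted p = 0.000975). An exact two-sided permutation test over the 252 splits of 5 against 5 gave p = 0.00794, the smallest it can give. Transcript in cKO tissue was 37.5% of the WT level. In bulk tissue, fewer cells that express a gene and less RNA per cell cannot be told apart.

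No member of the stress response passed the test that Map3k12 passed. At a limma adjusted p under 0.05, 0 of 35 members were called, and the same threshold called 0.00424% of all features, which was Map3k12 alone. Every member had a limma adjusted p of 0.99995. At an unadjusted limma p under 0.05 there was 1 member, Ddit4, of 35, and 3.86% of all features passed in either direction. None of the 35 had all cKO mice above or all cKO mice below the WT mice, against 0.53% and 0.246% of all features. The differences ran from -0.20 for Ddit4 to 0.15 for Slc7a5, with a median of 0.013, against a median of 0.0083 over all features. A total of 21 members had higher and 14 lower values in cKO mice, and a positive difference was found in 54.8% of all features. With each array centred on its median, 3 of 35 members instead had higher values, and with scaling between arrays 9 did, so these signs do not stand on their own.

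The intervals give the size of change that the fit without a slide term leaves possible. For all 35 members the 95% interval of the difference lay within a 1.5-fold change in either direction, and for 21 within 1.2-fold (60.0%). Over all features these shares were 98.5% and 69.9%. With slide as a fixed block, the genotype difference rests on slide 2 alone, where 1 cKO mouse was set against 3 WT mice. The intervals were then wider, and 23 of 35 members lay within 1.5-fold (65.7%, against 81.5% of all features). The 12 that did not were Aars, Asns, Eif2ak3, Gars, Iars, Phgdh, Psat1, Psph, Slc7a1, Slc7a11, Vldlr and Wars. With scaling between arrays 26 members lay within that bound (74.3%, against 72.7% of all features). With oligodendrocyte markers as a covariate 28 did (80.0%, against 90.4% of all features). With choroid plexus markers 30 did (85.7%, against 93.2% of all features). With plain background subtraction 34 did, all but Slc7a11, against 80.2% of all features. The same 34 did with the scanner software's processed signals, against 81.2% of all features. In the fit without a slide term the median SE was 0.074 for the members and 0.074 for all features, so the members were measured with the precision of the typical feature. A total of 30 members differed by less than 0.1 on the log2 scale (85.7%, against 81.6% of all features).

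**Figure D1:**
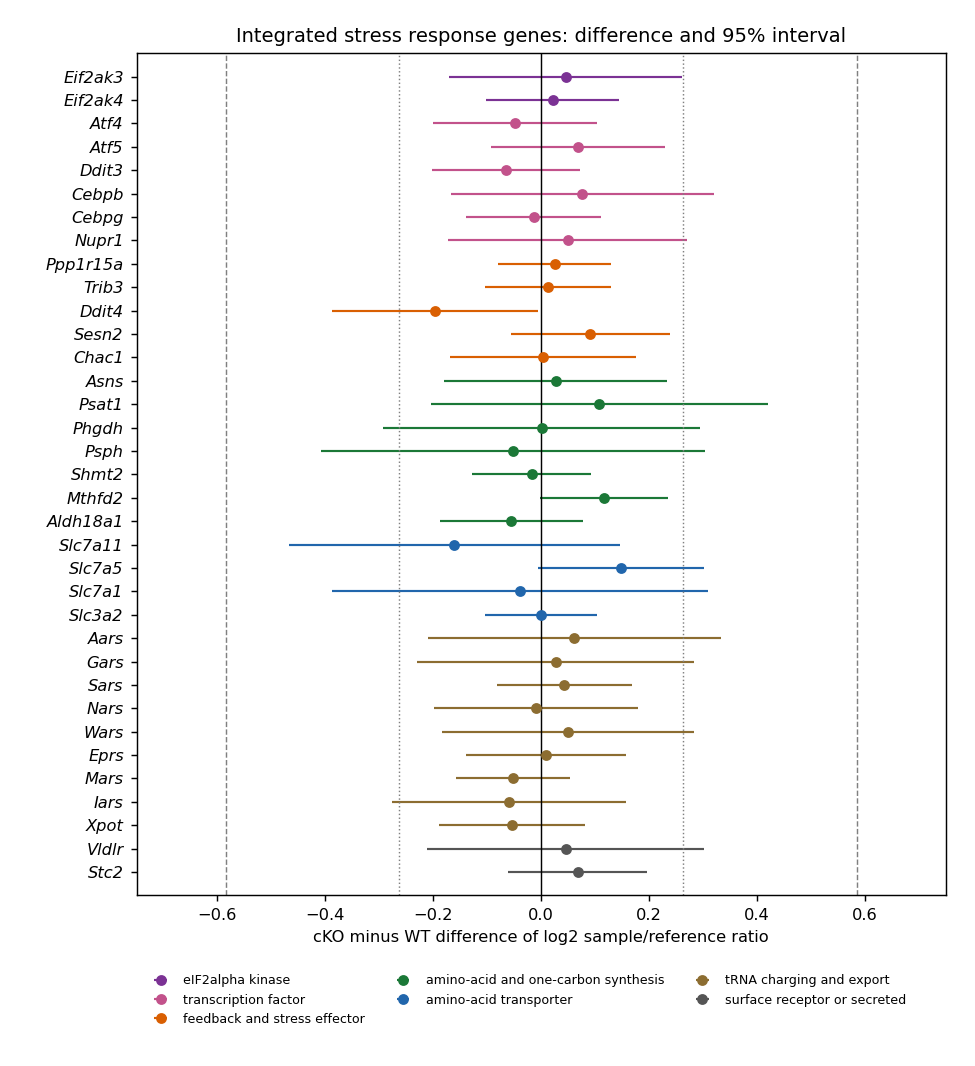
Difference of each of the 35 measured members, cKO minus WT on the log2 scale, with its 95% interval, grouped by role (n = 5 mice per group); dotted lines mark a 1.2-fold and dashed lines a 1.5-fold change. The intervals of all members except Ddit4, whose upper end is -0.0065, include 0, and the points lie between -0.20 and 0.15.

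The 2 member kinases that phosphorylate eIF2alpha, PERK and GCN2, did not pass the test in either direction. Eif2ak3 had log2 ratios of 0.20, 0.21, -0.16, 0.14 and -0.21 in cKO mice, against -0.10, 0.043, 0.0056, -0.19 and 0.19 in WT mice. Both groups spanned nearly the same range, with 3 high cKO mice and 1 high WT mouse. The difference was 0.045 (SE 0.099, limma unadjusted p = 0.655), and within slide 2, with 1 cKO mouse, it was 0.29. Eif2ak4, whose product senses uncharged tRNA, had -0.53, -0.63, -0.67, -0.53 and -0.68 in cKO mice, against -0.63, -0.61, -0.62, -0.75 and -0.54 in WT mice. Its groups overlapped throughout, and the difference was 0.022 (SE 0.057, limma unadjusted p = 0.711).

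Of the 6 transcription factors, 3 had higher and 3 lower values in cKO mice, with a median difference of 0.018. Atf4, the central factor, had -0.62, -0.47, -0.60, -0.71 and -0.75 in cKO mice, against -0.67, -0.58, -0.59, -0.66 and -0.41 in WT mice. The highest and lowest values belonged to WT 5 and cKO 5, and the other 8 mice overlapped fully. The mean was -0.63 ± 0.11 in cKO and -0.58 ± 0.11 in WT mice (SD, n = 5 each). The cKO level was 96.7% of WT (95% interval 87.1% to 107%). A second probe of Atf4 differed by -0.030. Ddit3 encodes CHOP, the factor induced by ATF4 in prolonged stress. Its values were -1.16, -1.12, -1.09, -1.30 and -1.07 in cKO mice, against -1.04, -1.06, -1.12, -0.98 and -1.22 in WT mice. The groups overlapped, and the difference was -0.065 (SE 0.063, limma unadjusted p = 0.323). It kept its sign in all 30 alternative analyses, without passing the threshold in any. Atf5, a factor translated under stress like Atf4, differed by 0.069 (SE 0.074). Cebpb and Cebpg, which encode dimer partners of ATF4, differed by 0.076 (SE 0.11) and -0.014 (SE 0.057). Nupr1, a small stress-induced nuclear protein, differed by 0.049 (SE 0.10).

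Among the 5 feedback and stress effectors, 4 had higher values and 1, Ddit4, had a lower value in cKO mice. Trib3 had -5.13, -5.10, -5.22, -5.16 and -5.11 in cKO mice, against -5.02, -5.21, -5.18, -5.20 and -5.18 in WT mice. The groups overlapped and the difference was 0.013 (SE 0.054, limma unadjusted p = 0.809). Ppp1r15a, which directs a phosphatase to eIF2alpha and so ends the response, differed by 0.025 (SE 0.048). Chac1 differed by 0.0032 (SE 0.079). Sesn2, which encodes a leucine sensor that restrains mTORC1, differed by 0.091 (SE 0.068).

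Ddit4 encodes REDD1, another stress-induced restraint on mTORC1. Its log2 ratios were -0.35, -0.35, -0.39, -0.32 and -0.31 in cKO mice, against -0.41, -0.0036, 0.019, -0.34 and 0.0059 in WT mice. The cKO mice were tightly grouped. The WT mice fell into 2 low and 3 high values, and the 2 low ones, WT 1 and WT 4, lay at the level of the cKO mice. The mean was -0.34 ± 0.034 in cKO and -0.14 ± 0.21 in WT mice (SD, n = 5 each). The difference was -0.20 (SE 0.088, limma unadjusted p = 0.0437). The cKO level was thus 87.2% of WT (95% interval 76.5% to 99.5%). It did not pass after adjustment (limma adjusted p = 0.99995), and 1.03% of all features were lower at an unadjusted p under 0.05. Within slide 2, where the single mouse cKO 2 was set against WT 1, 2 and 4, the difference was -0.097. All values within slide 2 rest on that 1 cKO mouse and are given without a test. With oligodendrocyte markers as a covariate it was -0.051, and with choroid plexus markers -0.24. It was negative under all 30 alternatives and passed an unadjusted p of 0.05 in 11 of them.

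**Figure D2:**
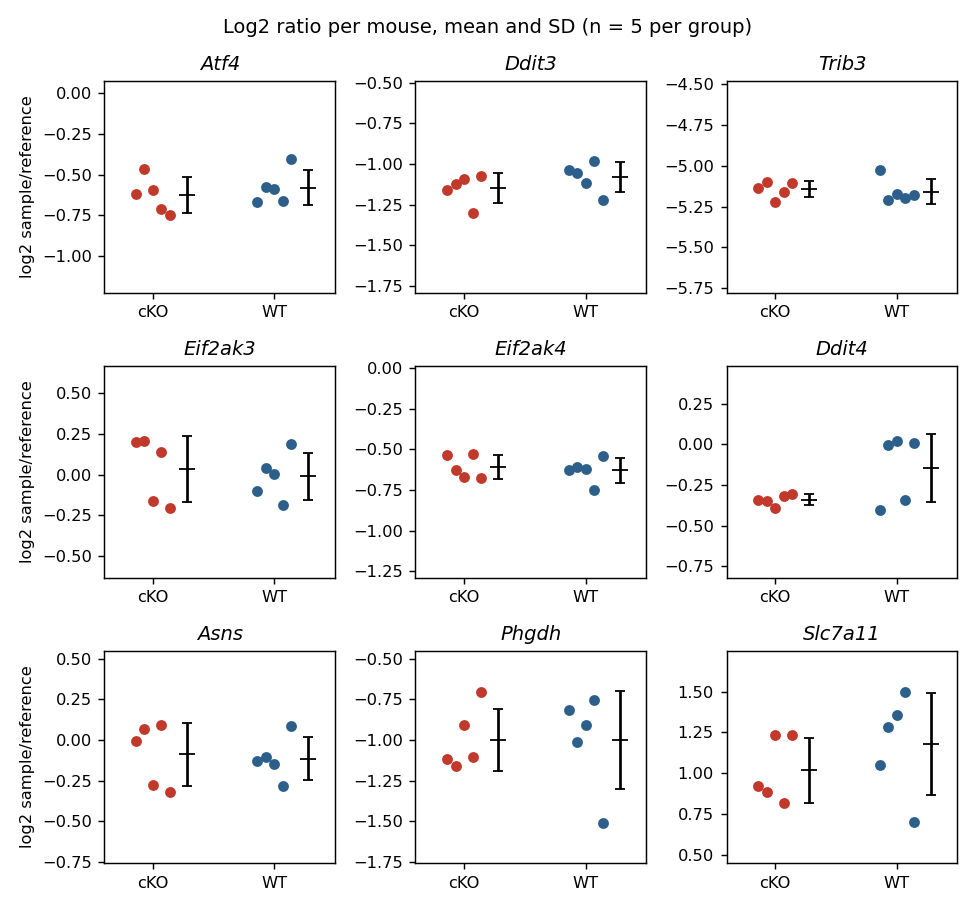
Log2 ratio of sample over reference in each mouse for selected members, cKO left of WT, with points for single mice and the mean and SD (n = 5 per group). For Ddit4 the cKO points lie between -0.39 and -0.31 and the WT points between -0.41 and 0.019, and no gene shown has groups that do not overlap.

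Of the 7 measured enzymes of amino acid and one-carbon synthesis, 4 had higher and 3 lower values in cKO mice, with a median difference of 0.0013. Asns, a much used ATF4 target, had -0.0067, 0.067, -0.28, 0.091 and -0.32 in cKO mice, against -0.13, -0.10, -0.15, -0.29 and 0.086 in WT mice. The cKO mice split into 3 high and 2 low values, and the WT mice lay within their span. The difference was 0.027 (SE 0.095, limma unadjusted p = 0.781), and within slide 2, with 1 cKO mouse, it was 0.24. Phgdh, Psat1 and Psph encode the enzymes of serine synthesis. Phgdh had -1.11, -1.16, -0.91, -1.11 and -0.71 in cKO mice, against -0.82, -1.01, -0.91, -0.76 and -1.51 in WT mice. The lowest value was that of WT 5 and the highest that of cKO 5. The difference was 0.0013 (SE 0.14, limma unadjusted p = 0.992). Psat1 and Psph had the same mice at their ends, and differed by 0.11 (SE 0.14) and -0.052 (SE 0.16). With oligodendrocyte markers as a covariate, the differences were -0.36 for Phgdh, -0.36 for Psat1 and -0.42 for Psph. In that fit 3 of 35 members, Phgdh, Psat1 and Nupr1, had an unadjusted limma p under 0.05. So did 5.15% of all features, and 0 members passed adjustment.

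Mthfd2, an enzyme of the mitochondrial folate cycle, was singled out after its values were seen because its p was the next smallest to that of Ddit4. It had -2.38, -2.55, -2.48, -2.42 and -2.51 in cKO mice, against -2.51, -2.61, -2.62, -2.65 and -2.53 in WT mice. Most cKO mice were above most WT mice, but cKO 2 lay below WT 1 and WT 5. The difference was 0.12 (SE 0.055, limma unadjusted p = 0.0531), and within slide 2 it was 0.034. Shmt2, of the same cycle, differed by -0.017 (SE 0.051), and Aldh18a1, of proline synthesis, by -0.055 (SE 0.061).

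Of the 4 amino acid transporter genes, 1 had higher and 3 lower values in cKO mice. Slc7a11, which encodes the exchanger that brings in cystine and releases glutamate, had 0.92, 0.88, 1.23, 0.82 and 1.23 in cKO mice, against 1.05, 1.28, 1.35, 1.5 and 0.70 in WT mice. The 4 highest WT mice exceeded 3 of the cKO mice, while WT 5 was the lowest of all 10. The difference was -0.16 (SE 0.14, limma unadjusted p = 0.276), and without WT 5 it was -0.28. Within slide 2, with 1 cKO mouse, it was -0.40.

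Slc7a5, the large neutral amino acid transporter, had the largest positive difference and was likewise singled out after its values were seen. It had -1.21, -1.44, -1.45, -1.23 and -1.46 in cKO mice, against -1.41, -1.54, -1.45, -1.48 and -1.65 in WT mice. Only cKO 1 and cKO 4 stood above all WT mice. The difference was 0.15 (SE 0.071, limma unadjusted p = 0.0581). A second, dimmer probe of Slc7a5 gave -0.016 (SE 0.087), so the size at the brighter probe was not seen at the other. The brighter probe gave 0.038 within slide 2, where the 1 cKO mouse was cKO 2 and not one of the 2 high mice. Slc3a2, the heavy chain with which both of these carriers pair, differed by -0.00076 (SE 0.048), at 99.9% of WT (95% interval 93.0% to 107%). Slc7a1, a carrier of arginine and lysine, differed by -0.039 (SE 0.16), and by 0.31 within slide 2, with 1 cKO mouse.

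The tRNA charging and export genes, 8 synthetases and the exporter Xpot, held 5 higher and 4 lower values in cKO mice, with a median difference of 0.0090. Their differences lay between -0.060 for Iars and 0.061 for Aars, the alanyl-tRNA synthetase gene, each smaller than its SE or close to it. Among the others, Wars differed by 0.050 (SE 0.11), Sars by 0.043 (SE 0.058), Mars by -0.053 (SE 0.049) and Xpot by -0.053 (SE 0.062). Gars, Eprs and Nars differed by 0.027, 0.0090 and -0.0094. Within slide 2, with 1 cKO mouse, the mean of the 9 genes differed by 0.15, against 0.0016 over all mice. The largest differences there were 0.35 for Aars, 0.29 for Wars, 0.26 for Gars and 0.23 for Iars. The receptor gene Vldlr differed by 0.046 (SE 0.12), and Stc2, a secreted glycoprotein induced by this response, by 0.068 (SE 0.059). By promoter, the 9 tested members with a TGATGNAA match had a median difference of 0.027 (7 of 9 higher). The 23 tested members without one had a median of 0.0013 (12 of 23 higher), and both sets spanned 0.

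Of 70 genes in the wider pathway lists, 29 had higher and 41 lower values in cKO mice (41.4% higher, against 54.8% of all features). Of 15 genes of the eIF2 machinery, 7 had higher and 8 lower values in cKO mice and 0 passed an unadjusted limma p under 0.05. The 2 with the smallest p were Eif2s3x, an eIF2 subunit (0.12, SE 0.070), and Ppp1r15b, the constitutive partner of the eIF2alpha phosphatase (-0.080, SE 0.051). Of 26 other reported targets of ATF4 or CHOP, 13 had higher and 13 lower values, with a median of 0.0021. Of 12 other cytosolic tRNA synthetases, 7 had higher and 5 lower values, led by Cars (0.080, SE 0.064) and Farsa (0.067, SE 0.061). Of 17 mitochondrial tRNA synthetases, which are not part of the usual ATF4 programme, 2 had higher (11.8%) and 15 lower values, with a median of -0.035. The 2 with the smallest p were Wars2 (-0.15, SE 0.077) and Aars2 (0.092, SE 0.051). None of these 70 genes passed adjustment with limma.

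The 1 wider-pathway gene with an unadjusted limma p under 0.05 was Slc6a9, the glycine transporter. It had 0.89, 0.96, 0.59, 0.91 and 0.67 in cKO mice, against 0.63, 0.59, 0.45, 0.46 and 0.55 in WT mice. The cKO mice were high except for cKO 3, which lay between the WT mice. The difference was 0.27 (SE 0.078, limma unadjusted p = 0.00487, adjusted p = 0.99995), and 2.83% of all features were higher at an unadjusted p under 0.05. The next in its list was Jdp2, a transcription factor (0.17, SE 0.078, limma unadjusted p = 0.0544).

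Set against the pooled reference RNA, most members were less abundant in hippocampus. These ratios include the dye difference and were not tested, and they order genes by ratio to the pool rather than by amount of mRNA. In WT mice 6 of 35 members exceeded the reference (17.1%), against 55.8% of all features. The median WT log2 ratio was -0.83 for the members and 0.089 for all features. The 6 were Slc7a11 at 2.26 times the reference, Wars at 1.95, Vldlr at 1.58, Sesn2 at 1.29, Xpot at 1.06 and Gars at 1.05. The last 2 lay within an SD of the reference level (log2 0.082 ± 0.096 and 0.072 ± 0.16, SD, n = 5). These ratios also depended on the probe. A second, dimmer probe gave a mean WT log2 ratio of -0.20 for Wars and -0.33 for Vldlr, below the reference. For Slc7a5 a second probe gave 0.83, above the reference, against -1.51 at the probe used. Second kept probes of Atf4, Phgdh, Psat1, Psph and Xpot lay on the same side as the probes used.

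At the other end were 7 members of several roles. The reference exceeded WT hippocampus 35.7-fold for Trib3, 9.87-fold for Nupr1, 8.46-fold for Shmt2, 7.08-fold for Stc2, 5.99-fold for Mthfd2, 4.42-fold for Aldh18a1 and 4.05-fold for Chac1. For Ddit3 and Atf4 it was 2.12-fold and 1.49-fold. Neighbours in this order such as Atf5 (-1.40 ± 0.14 in cKO and -1.47 ± 0.098 in WT mice) and Cebpb (-1.38 ± 0.19 in cKO and -1.45 ± 0.22 in WT mice) did not differ beyond their spread (SD, n = 5). The cKO mice had the same 7 genes farthest below the reference.

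**Figure D3:**
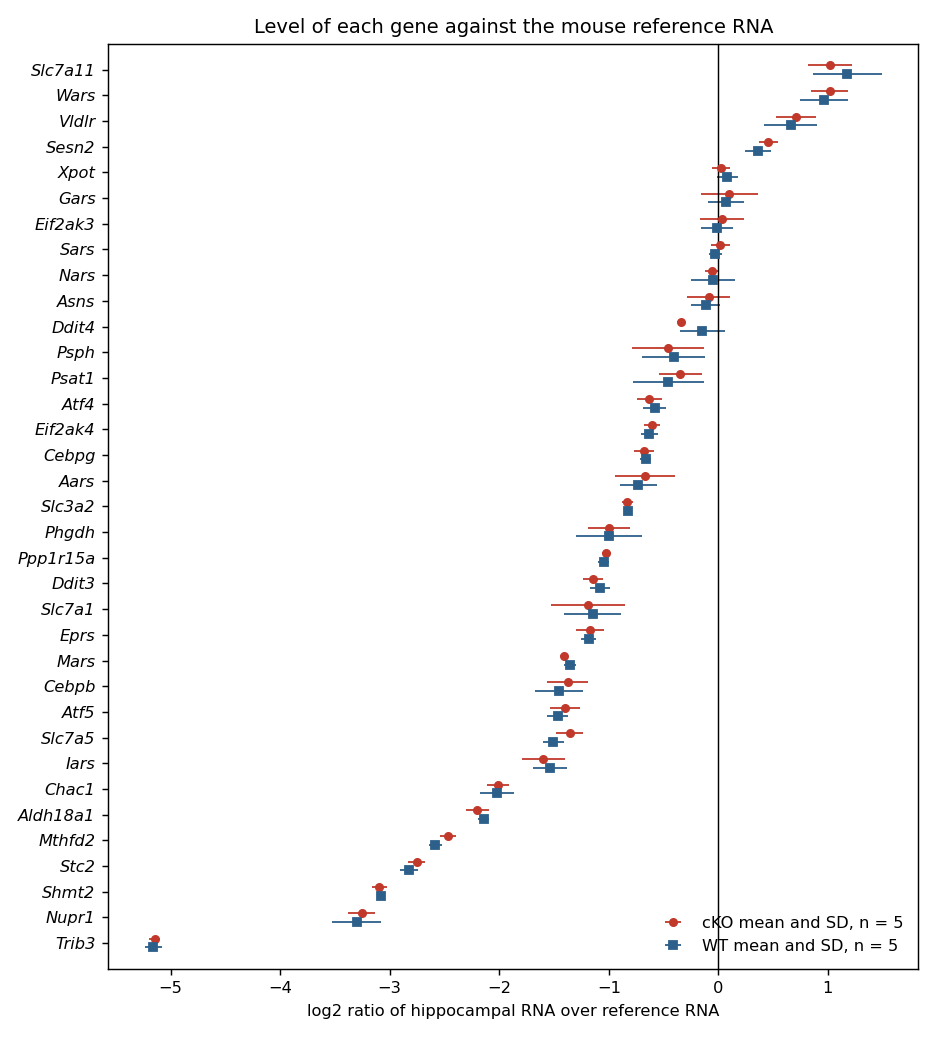
Log2 ratio of hippocampal RNA over the reference RNA for each of the 35 members, ordered by the WT value, with cKO and WT points for the mean and bars for the SD (n = 5 per group). Trib3 lies lowest, at -5.14 in cKO and -5.16 in WT mice, and Slc7a11 highest, at 1.02 in cKO and 1.18 in WT mice.

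Although no member was called between genotypes, several members varied widely from mouse to mouse. The SD within genotype was above the 90th percentile of all features for 6 of 35 members (17.1%): Psph, Slc7a1, Psat1, Slc7a11, Phgdh and Aars. It was below the 10th percentile for 6 others, Slc3a2, Ppp1r15a, Mars, Shmt2, Trib3 and Mthfd2. The 3 enzymes of serine synthesis were all among the variable members, whereas the transporter genes were split, with Slc7a1 and Slc7a11 variable and Slc3a2 stable.

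Several members, not only the most variable ones, shared an order of the mice. The 4 mice with the lowest mean of astrocyte markers were cKO 1, cKO 2, cKO 4 and WT 5. These mice had the 4 highest values of Eif2ak3, Asns, Slc7a1, Aars, Gars, Wars, Eprs and Vldlr. They had the 4 lowest values of Ddit3, Psat1, Phgdh, Psph and Slc7a11. Aars shows it most plainly, with -0.48, -0.44, -0.96, -0.48 and -0.99 in cKO mice, against -0.79, -0.76, -0.84, -0.83 and -0.43 in WT mice. Psph ran the other way, with -0.66, -0.68, -0.21, -0.74 and -0.0079 in cKO mice, against -0.28, -0.29, -0.25, -0.30 and -0.92 in WT mice. These groupings cut across genotype.

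**Figure D4:**
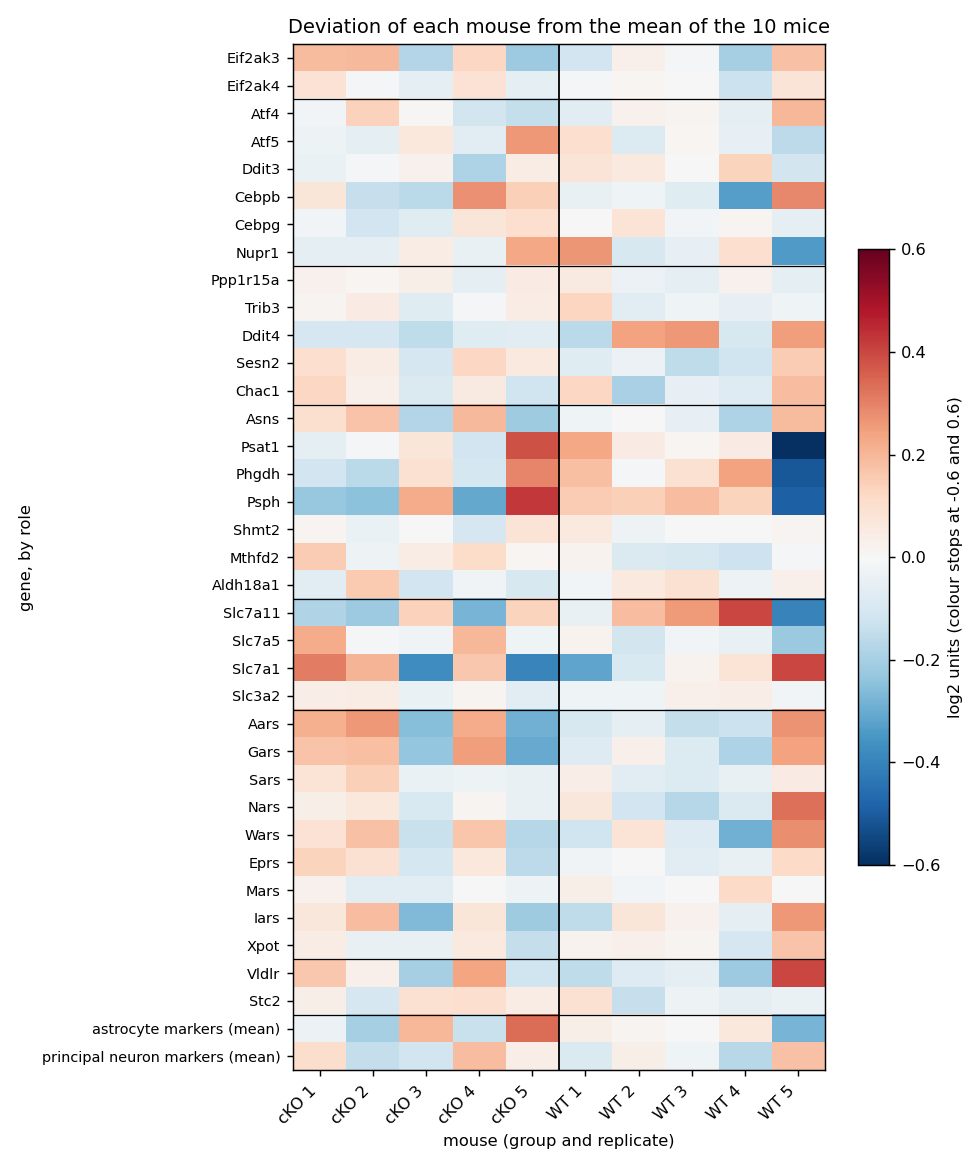
Deviation of each mouse from the mean of the 10 mice, on the log2 scale, for the 35 measured members ordered by role, with the 5 cKO mice left of the 5 WT mice. The columns of cKO 1, cKO 2, cKO 4 and WT 5 share their signs for Asns, Aars and Gars (above the mean) and for Psat1, Phgdh and Psph (below it).

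The 4 mice were picked by their low mean of 12 astrocyte markers, so their low marker values are not a separate observation. That mean was 4.51, 4.34, 4.74, 4.41 and 4.88 in cKO mice, against 4.58, 4.56, 4.54, 4.60 and 4.26 in WT mice. The next lowest mouse, at 4.54, lay close to the highest of the 4, at 4.51, so the division at 4 mice is not a sharp one. The ordering was common in these data. It placed the same 4 mice highest for 22.9% of members and 7.419% of the 23440 features with complete data, and lowest for 14.3% of members and 8.972% of features. The median Cy5 signal was 181.5 to 202 on the arrays of these 4 mice and 146 to 187 on the other 6, so signal strength moved with the order too. The part of signal strength in the members' values was not tested.

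Correlations over the 10 mice were computed between each member and the mean of each of 6 marker lists, 210 relations in all, with 100000 permutations each and Benjamini-Hochberg adjustment over the 210. No pooled correlation is given for 7 members whose values fell into separate bunches, with a gap over 30% of the range near the middle. This limit was set after the values were seen. Of the other 28, 8 passed for astrocyte markers in both Pearson and Spearman form. For Iars, r was -0.916 (permutation p = 0.00029, adjusted p = 0.0087) and rho was -0.939 (permutation p = 0.00021, adjusted p = 0.0105). For Gars, r was -0.915 (permutation p = 6e-05, adjusted p = 0.00252) and rho was -0.927 (permutation p = 0.00035, adjusted p = 0.0105). Without cKO 5 and WT 5, the 2 mice farthest from the median of the astrocyte markers, r was -0.889 for Iars and -0.882 for Gars.

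Eif2ak3, Eprs, Slc7a1 and Wars also correlated negatively. For Eif2ak3, r was -0.862 (permutation p = 0.00025, adjusted p = 0.0087) and rho was -0.915 (permutation p = 0.0004, adjusted p = 0.0105), and r was -0.840 without the 2 mice. For Eprs, r was -0.884 (permutation p = 0.0006, adjusted p = 0.013) and rho was -0.855 (permutation p = 0.00283, adjusted p = 0.035), and r was -0.790 without them. For Slc7a1, r was -0.860 (permutation p = 0.00118, adjusted p = 0.0165) and rho was -0.891 (permutation p = 0.00118, adjusted p = 0.0191), and r was -0.745 without them. These 3 transcripts, of a kinase, a synthetase and a carrier, were higher where astrocyte markers were lower. For Wars, r was -0.815 (permutation p = 0.00383, adjusted p = 0.035) and rho was -0.952 (permutation p = 0.0001, adjusted p = 0.0105), and r was -0.767 without them.

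Phgdh and Psat1, of serine synthesis, ran with the astrocyte markers, though not with those alone. For Phgdh, r was 0.858 (permutation p = 0.00144, adjusted p = 0.0178) and rho was 0.891 (permutation p = 0.0011, adjusted p = 0.0191). For Psat1, r was 0.821 (permutation p = 0.00365, adjusted p = 0.035) and rho was 0.927 (permutation p = 0.00035, adjusted p = 0.0105). Without cKO 5 and WT 5, r was 0.723 for Phgdh and 0.546 for Psat1, so the size of the Psat1 relation rested in part on those mice. With the microglia marker mean, r was 0.88 for Phgdh (permutation p = 0.00079, adjusted p = 0.014) and 0.93 for Psat1 (permutation p = 0.0006, adjusted p = 0.013). In Spearman form neither passed there (permutation test, adjusted p = 0.12 for Phgdh and 0.0525 for Psat1). The relation was thus not particular to the astrocyte list. In the brain, Phgdh is known mainly from astrocytes. Over all features, 5.704% had r of -0.8 or below and 9.825% had r of 0.8 or above with the same marker mean, against 22.9% and 11.4% of members. Correlations within a genotype or a slide, of at most 5 mice each, were not computed.

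**Figure D5:**
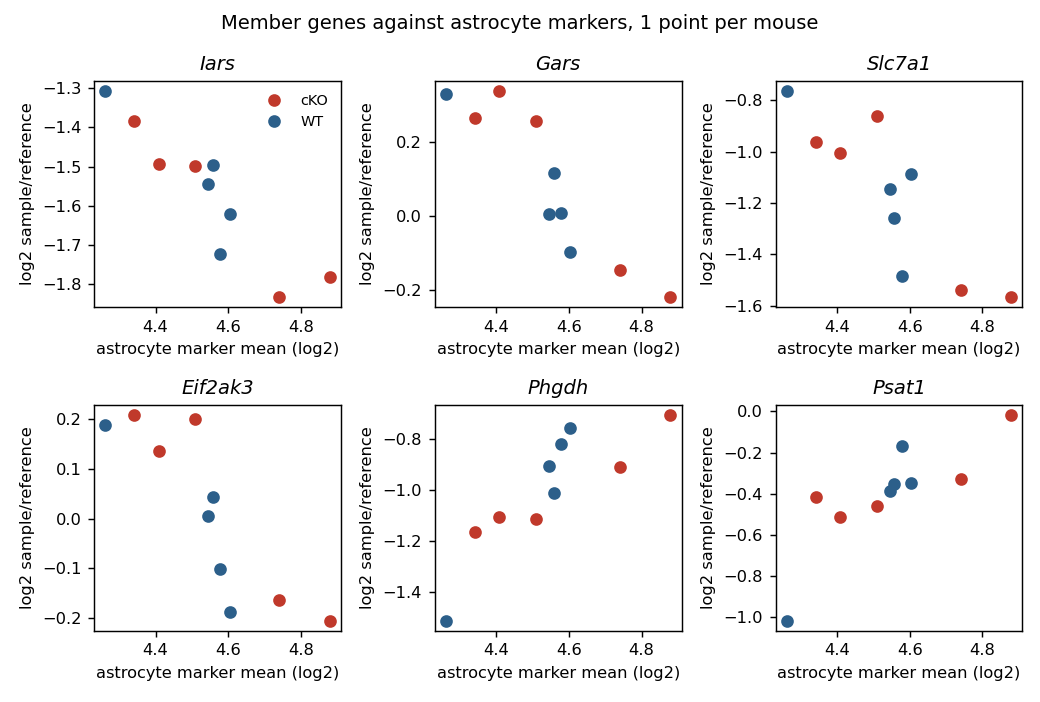
Log2 ratio of selected members (vertical axis) against the mean log2 ratio of 12 astrocyte markers (horizontal axis), 1 point per mouse, coloured by genotype. Gars and Iars fall as the marker mean goes up from 4.26 to 4.88, whereas Phgdh goes up with it, over the 10 mice together. Trends within a genotype were not fitted.

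By Pearson alone, 9 members passed for astrocyte and 8 for microglia markers. With the other lists, 3 members passed in both forms for microglia markers (Atf5, Slc7a1 and Iars) and 1 for principal neuron markers. That 1 was Cebpb, with r = 0.938 (permutation p = 2e-05, adjusted p = 0.0021) and rho = 0.952 (permutation p = 0.0001, adjusted p = 0.0105), and r = 0.861 without cKO 4 and WT 5. None passed for choroid plexus, oligodendrocyte or endothelial markers, the 3 lists whose means differed most between genotypes. With the astrocyte mean as a covariate of the genotype fit, an alternative added after the data were seen, 0 of 35 members passed adjustment with limma. The differences were then -0.24 (SE 0.091) for Slc7a11, -0.16 (SE 0.060) for Psph, 0.14 (SE 0.049) for Aars and 0.12 (SE 0.050) for Mthfd2, each with an unadjusted p under 0.05. These were 4 of 35 members, and 8.10% of all features had an unadjusted limma p under 0.05 there. Asns was 0.083 (SE 0.045) and Atf4 -0.022 (SE 0.056) in that fit.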

How the data were processed

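RNA was measured on 2-colour Agilent arrays, with sample in Cy5 and a common reference in Cy3 throughout. The deposited scanner files hold median spot and background intensity values made by the authors with Agilent Feature Extraction 11.0.1.1, per the file headers. They also hold log10 ratios of Cy5 over Cy3, for which that software subtracted background and corrected for dye, per the file headers. The authors' deposited value table holds log2 values of sample over reference, and limma is named for it, with no version or settings, per the submitters' processing notes. Set against the ratios computed here, its columns correlated at 0.99997 or more, with column medians of 0.0120 to 0.0204, so scale and direction were those of log2 Cy5 over Cy3 without centring of genes. It served as an alternative. No genome build was needed for the values.

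Background was corrected with normexp (offset 50) in limma 3.58.1 under R 4.3.3, on median signals since the files used here hold those rather than the means that had been planned. Spots marked as non-uniform were removed before that step and population outliers before averaging. Loess followed within each array, with control spots at weight 0. The offset pulls ratios of dim spots towards 0. Probes with Cy5 well above background on at least 5 of 10 arrays were kept (28682 of 39429), and the brightest stood for its gene, giving 23574 features. RefSeq accessions named 67.4% of probes. Mars is listed there as Mars1. Genotypes were compared with lmFit and eBayes, two-sided, with Benjamini-Hochberg adjustment over all features. The script was tested on simulated data.

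Members and gene lists were chosen with earlier results of these data known. Full values are given for members with an unadjusted p under 0.05 or groups that do not overlap, and for Atf4, Ddit3, Asns, Phgdh, Slc7a11, Eif2ak3, Eif2ak4 and Trib3. Genes of the wider lists are named when p was under 0.05 or among the 2 smallest of their list. Other members were singled out after their values were seen. Replicates are separate mice per the labels. The number of arrays limits the precision. Alternatives covered background, normalisation, filters, probes, slide, array weights, cell markers, a replicate block and leaving out each array. Some promoter sites are not reported here.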

Additional observations from a re-analysis of the deposited data

Results flagged for a closer look

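Within each genotype the values of the 35 members were searched for a mouse standing far from the other 4, by the gap to its nearest neighbour as a share of the group's range against Dixon's critical value of 0.71. Of 70 groups, 5 had such a mouse, all among WT mice, where chance alone would give about 1 in 20. WT 5 was the mouse in 4 of them. Its log2 ratio was -1.02 for Psat1, where the other WT mice lay at -0.39 and above. It was -0.92 for Psph, where the others lay at -0.30 and above. It was -0.43 for Aars, where the others lay at -0.76 and below, and 1.08 for Vldlr, where the others lay at 0.62 and below. WT 5 was also the mouse with the lowest astrocyte marker mean, at 4.26, and the highest median Cy5 signal, at 202. WT 1 had -5.02 for Trib3, with the other WT mice at -5.18 and below. Without WT 5 the differences, cKO minus WT, were -0.033 for Psat1, -0.18 for Psph, 0.14 for Aars and 0.15 for Vldlr, against 0.11, -0.052, 0.061 and 0.046 with it. None of these passed adjustment with limma either way.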

How the results depend on the processing

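In 30 alternatives (29 planned and 1 added after the data were seen), 0 of 35 members passed an adjusted limma p under 0.05. The fit within slide 2 is counted among the 30, but with 1 cKO mouse it cannot bear a test. Slide as a fixed block gives the same differences as within slide 2, so it is not a separate estimate of them. Member differences changed sign in 155 of 1050 values. Ddit3, Ddit4, Slc7a11, Slc7a5 and Mars kept their sign in all 30. The causes of the changes below were not tested. Map3k12 stayed negative but missed the threshold, leaving 0 features called, under several alternatives. These were plain background subtraction (-1.79), Cy5 alone (-1.18), scaling between arrays (-1.31), all spots kept (-1.26), and choroid plexus (-1.19) or oligodendrocyte markers (-1.27) as a covariate. Within slide 2, with 1 cKO mouse, Map3k12 differed by -1.81. Taking the mean of a gene's probes called 2 features and testing every kept probe called 3. Leaving out 1 array called 1 to 2, with 2 only without cKO 4. Members with an unadjusted p under 0.05, which was 1 as reported, numbered 0 with an offset of 16, plain subtraction, Cy5 alone, scaling, all spots kept, and slide as a fixed block. In those fits 0.997% to 4.62% of all features passed. Members numbered 2 with the deposited value table and with probes of a gene averaged (3.79% of all features in each). They numbered 3 with slide as a random block (8.04% of all features) and with oligodendrocyte markers (5.15%). They numbered 4 with astrocyte markers (8.10% of all features) and 5 with array weights (11.1%). Leaving out 1 array gave 0 to 3. It gave 0 without cKO 1, cKO 4, WT 2 or WT 3 (3.08% to 3.30% of all features). It gave 2 without cKO 2 (4.49% of all features), and 3 without WT 1 (4.78%) or WT 5 (4.41%). The median member difference, 0.013 as reported, was -0.079 with median centring, where that of all features was -0.057, and -0.082 with scaling. It was 0.066 with oligodendrocyte markers. Features with an unadjusted p under 0.05, 911 as reported, numbered 1896 with the random slide block, 2614 with array weights and 1910 with astrocyte markers. They numbered 605 with median centring, 582 with Cy5 alone and 235 with scaling.

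Replicate numbers were shared by both genotypes but did not pair the mice: same-numbered mice correlated between -0.56 and 0.16, and 0 of 5 correlated best with their own number. With a replicate block, 609 features and 1 member (Slc7a5) had an unadjusted p under 0.05, 0 members passed adjustment, and Map3k12 differed by -1.41.

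The main limits are 5 mice per group, genotype and slide shared on 1 slide of 3, and mRNA measured without protein or phosphorylation. The offset pulls ratios towards 0 where a channel is dim. Among the dimmer members were Stc2, with Cy5 signals of 122 to 165, and Slc7a11, with Cy3 signals of 130.5 to 146.5.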
